A study of Mus musculus with 8 samples.

Results

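The genes described here encode enzymes of branched-chain amino acid breakdown (22 genes) and of pyruvate entry and the tricarboxylic acid (TCA) cycle (15 genes). They were chosen by name, 37 symbols in all, and each was matched exactly to the symbol given with a row of the deposited count table; where a symbol stood on several rows, the row with the highest total count was used. A row was found for 35 of the 37 symbols, among 31854 rows in the table; Oxct1 and Pdha1 matched none and were not analysed here. Of the 35, 34 had enough reads to be tested, and Mccc1 did not. Expression was measured by RNA sequencing of epididymal white adipose tissue, a visceral fat depot, from mice fed a high-fat diet. A group of 4 libraries came from mice with the wild-type genotype (WT, replicates 1, 2, 3 and 5), and 4 came from mice with the S273A genotype (replicates 2, 3, 4 and 6), a knock-in allele that puts alanine in place of a serine of PPAR-gamma, a nuclear receptor needed for adipocyte differentiation. All 8 libraries share the tissue and the diet, so there is no comparison with another diet. The labels give no age or litter and do not say that each library is a separate animal, so the p-values speak only for the variation among these libraries, part of which may be technical.

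Leucine, isoleucine and valine are first stripped of their amino group by the branched-chain aminotransferases. The resulting keto acids are then committed to breakdown by the branched-chain keto acid dehydrogenase complex (BCKDH) in mitochondria, which a kinase switches off and a phosphatase switches on. Their carbon ends as acetyl-CoA, acetoacetate or succinyl-CoA, and the last of these enters the TCA cycle. In fat cells this breakdown feeds lipid synthesis, and the pathway is known for its lower activity in the adipose tissue of obese animals and for its response to drugs that activate PPAR-gamma. Pyruvate enters the same cycle as acetyl-CoA through pyruvate dehydrogenase, or as oxaloacetate through pyruvate carboxylase.

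Library totals ran from 14880239 to 18194889 counts, and the tested members had between 140 and 15313 counts in a library. The members together took between 0.329% and 0.473% of all counts. Levels are given as CPM, a gene's count scaled to a fixed library size, with library sizes adjusted by the trimmed mean of M-values (TMM), whose factors lay between 0.983 and 1.02. The labelled tissue was checked with marker lists. All 15 adipocyte markers had enough reads to be tested, and their summed level was 13172 to 19144 CPM in WT and 14745 to 18213 CPM in S273A. Epididymis and testis markers summed to 0.205 to 0.455 CPM in WT and 0.308 to 1.39 CPM in S273A, with Lcn8 and Defb2 at 0. Progenitor and fibroblast markers summed to 4602 to 6242 CPM over the 8 libraries, and mesothelial markers to 161 to 316 CPM. Lymphocyte markers summed to 83.8 to 218 CPM, red blood cell markers to 68.2 to 151 CPM, skeletal muscle markers to 94.6 to 182 CPM, and brown and beige fat markers to 13.8 to 24.6 CPM. Most of the skeletal muscle sum was Acta1 alone, at 90.2 to 176 CPM, and 3 of the 9 muscle rows had enough reads to be tested. No marker passed the test described below. The allele changes a single codon, so no gene count checks the genotype labels.

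Promoters were taken from RefSeq on GRCm38.p6, as the 250 bases before to the 50 bases after each start site, to describe which motifs occur in them. A promoter was found for 34 of the 37 symbols (none for Dbt, Acat1 and Idh3a). A total of 12 motifs was searched on both strands, the shorter ones nested in some of the longer; they were chosen with results of these data known, and a match is only a description. The motif of NRF1, a transcription factor of nuclear genes for mitochondrial proteins, written as GCGCA and GCGC with any 1 base between, was in the promoters of 4 members (Dld, Hibadh, Pccb and Sucla2), 11.8% of 34, and in 5.19% of the 27025 symbols with a promoter. A short form of the YY1 motif, AANATGGCG, was in 6 members (Bckdha, Auh, Acadsb, Pccb, Idh3g and Ogdh), 17.6%, against 2.76% of all symbols. The motif of the GABP factor, CCGGAAG, was in 4 members (Auh, Idh3b, Idh3g and Dlst), 11.8%, against 9.93%. The PPAR direct repeat, AGGTCA followed by any 1 base and AGGTCA, was in 0 of 34 members and in 0.0481% of all symbols, and a looser form with N as the fourth base of each repeat was in 0 members and 0.451%. The estrogen-related receptor motif TCAAGGTCA was in 0 members and in 0.466% of all symbols, TGACCTTTG, an end of the PPAR repeat, in 0 and 0.544%, and the long YY1 motif in 0 and 0.755%. Short motifs were common throughout: TGACCT was in 32.4% of members and 18.1% of symbols, GGGCGG in 58.8% and 38.2%, CACCC in 64.7% and 59.8%, and CACGTG in 8.82% and 8.09%. Matches lying wholly before the start site are printed below with flanks of up to 25 bases, the match in capitals, on the gene's own strand from 5′ to 3′; the first 3 are NRF1 matches and the other 2 are YY1 matches, and those of Hibadh, Sucla2 and Acadsb read on the opposite strand. They lie at chr6:52640332-52640391 (minus strand, Hibadh), chr9:101034919-101034978 (minus, Pccb), chr14:73552744-73552785 (plus, Sucla2), chr7:131410458-131410516 (plus, Acadsb) and chrX:73786994-73787052 (minus, Idh3g). The start sites here are those of RefSeq. By the GENCODE gene positions, the matches of Hibadh and Sucla2 lie inside the gene.
Hibadh: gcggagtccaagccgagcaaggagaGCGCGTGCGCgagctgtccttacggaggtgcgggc
Pccb: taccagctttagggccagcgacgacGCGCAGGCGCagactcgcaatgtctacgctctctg
Sucla2: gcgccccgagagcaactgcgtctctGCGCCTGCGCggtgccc
Acadsb: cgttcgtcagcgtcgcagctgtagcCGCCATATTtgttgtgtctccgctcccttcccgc
Idh3g: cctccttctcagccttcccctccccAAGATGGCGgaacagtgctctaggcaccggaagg

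The comparison asked whether transcripts of these enzymes differ between the genotypes. None of the 34 tested members passed edgeR's quasi-likelihood test with Benjamini-Hochberg adjustment over all 15667 tested rows (adjusted p of 0.9999 for each), and 0% of those rows passed. No member had an unadjusted p under 0.05 either, where 1.46% of all tested rows did. Limma-voom likewise gave 0 members under 0.05 unadjusted (1.42% of all rows) and called 0% of rows after adjustment. DESeq2 gave 0 members unadjusted (0.952% of 22694 rows) and called 0.00441% of rows, which is 1 gene, after adjustment. The genotypes overlapped in each of the 34 members, while 1.19% of all tested rows had no overlap. Estimates were small: log2 fold changes of S273A over WT ran from -0.08 to 0.14, with a median of 0.06 over the 34 members, 0.06 over the 20 tested genes of branched-chain amino acid breakdown and 0.06 over the 14 tested genes of pyruvate entry and the TCA cycle. The median over all tested rows was 0.001. In 31 of the 34 members the genotype means differed by less than either SD. The exceptions were Bcat2, Acad8 and Idh3g, and in Idh3g alone the difference exceeded both SDs.

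Estimates were positive for 30 of the 34 members, 17 of 20 in the branched-chain arm and 13 of 14 in the other, where 50.7% of all tested rows were positive. Marker lists had directions too: estimates were positive for 10 of 15 adipocyte (median 0.04), 10 of 10 endothelial (0.10), 12 of 12 mesothelial (0.29) and 6 of 7 red blood cell markers (0.39). They were positive for 2 of 16 macrophage (-0.09), 4 of 10 progenitor and fibroblast (-0.04), 4 of 9 lymphocyte (-0.06), 5 of 7 brown and beige fat (0.07) and 2 of 3 skeletal muscle markers (0.27). Their part in the members' direction was not tested. The members' direction turned on WT replicate 2: without it, 13 of 34 estimates were positive and the median was -0.02. Without S273A replicate 4 the count was 23 and the median 0.02, and without S273A replicate 2 it was 25 and 0.04. Across the members, the median distance from the estimate to the end of its 95% confidence interval was 0.24 on the log2 scale. Over all tested rows it was also 0.24. For 33 of the 34 members the whole interval lay within a 1.5-fold change in either direction, as it did for 12386 of all 15667 tested rows. The exception was Bcat1, from -0.70 to 0.71.

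**Figure D1:**
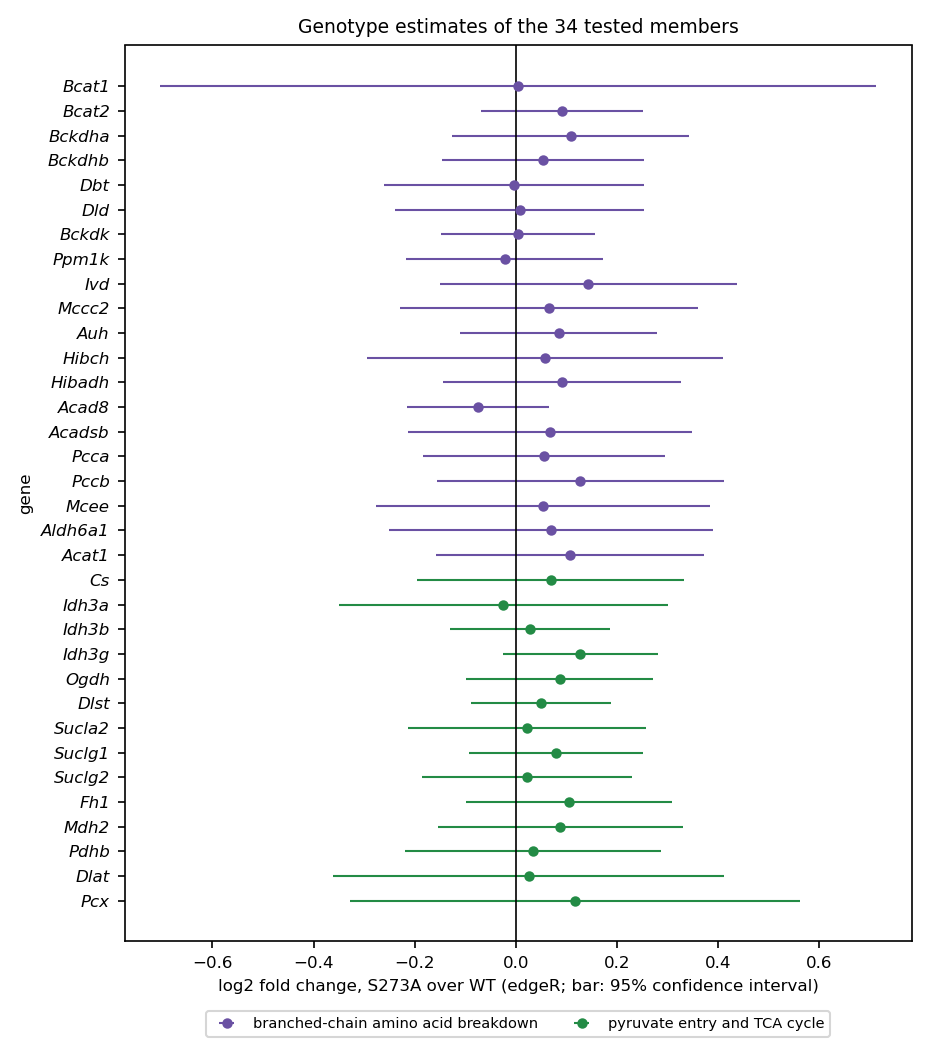
Log2 fold change of S273A over WT (horizontal axis) for each of the 34 tested members, with bars for edgeR's 95% confidence interval. All 34 intervals include 0, and the widest is that of Bcat1 (-0.70 to 0.71).

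A single library stood out across the members. WT replicate 2 had the lowest level of all 8 libraries in 30 of 34 members, 16 of 20 in the branched-chain arm and 14 of 14 in the pyruvate and TCA arm, while it was the lowest in 19.9% of all tested rows. Among the 4 WT libraries alone it was the lowest in 32 of 34 members, against 31.3% of all tested rows. Its level was a median of 0.37 lower on the log2 scale than the mean of the other 3 WT libraries (-0.37 over the members, 0.002 over all tested rows). The members in which it was not the lowest were Bcat1, Ppm1k, Mcee and Acad8, and in Acad8 it was the highest.

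The adipocyte markers were lowest in the same library, with a summed level of 13172 CPM against 17341 to 19144 CPM in the other WT libraries, and 13 of the 15 markers were at their lowest there. Macrophage markers had their highest summed level there, 9601 CPM against 6941 to 8138 CPM in the other 7 libraries, and 12 of 16 markers were at their highest. Endothelial markers were lowest there too, at 800 CPM against 931 to 1172 CPM elsewhere. The part of adipocytes, macrophages and endothelial cells in the members' levels was not tested. In whole tissue, fewer cells of a type and less RNA per cell cannot be told apart. Each member was also divided by the summed adipocyte markers of its library, a quantity chosen after seeing the data. The divisor was itself lowest in WT replicate 2, so the division had to raise that library against the others. WT replicate 2 was then the lowest library in 2 of 34 members instead of 30, and the highest in 8. WT replicate 3 was the lowest in 15. The median log2 difference between the genotypes in the divided level was 0.06. The difference was positive in 29 of 34 members, and the genotypes still overlapped in every member. All members shared the divisor, which shifted every log2 difference equally, so the count of 29 adds no independent evidence of a direction.

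**Figure D2:**
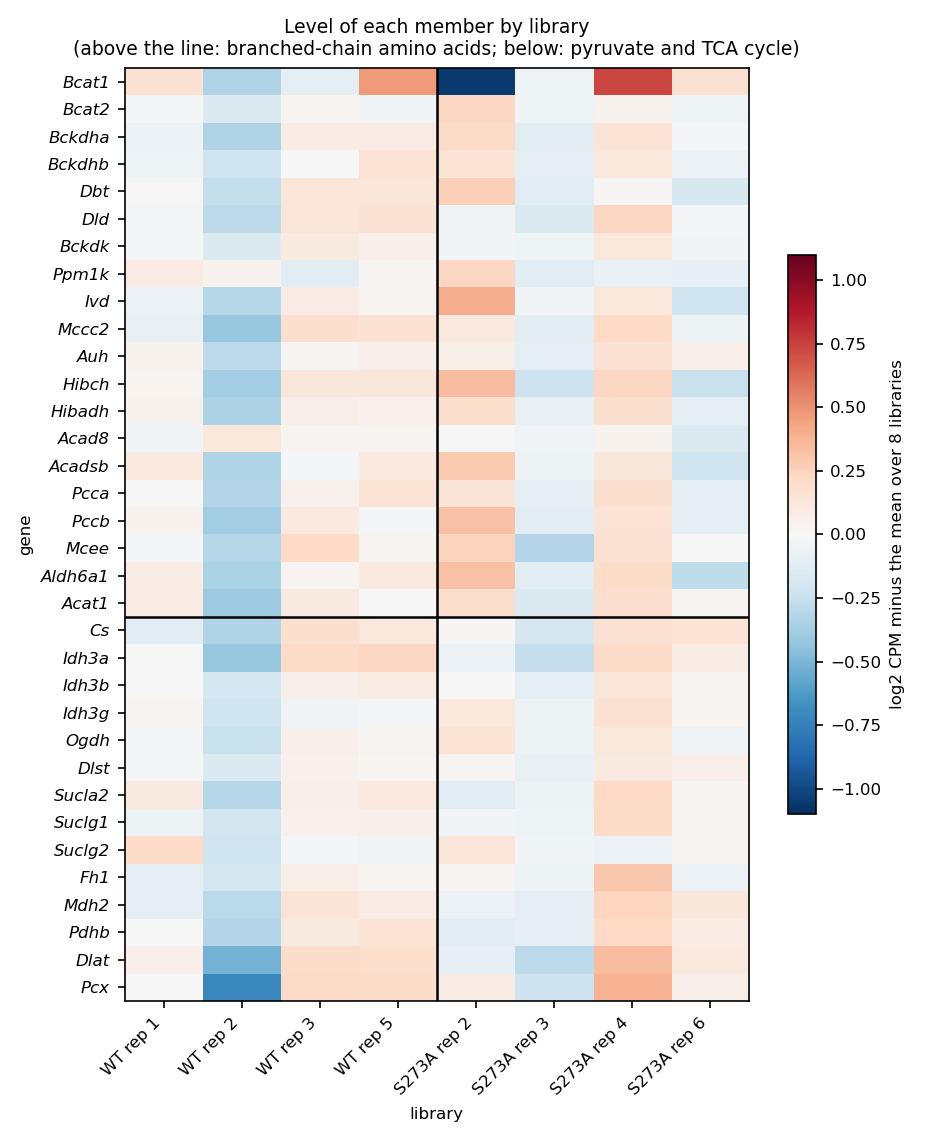
Log2 CPM of each tested member (rows) in each library (columns), relative to the gene's mean over the 8 libraries; the vertical line separates WT from S273A and the horizontal line the 2 pathway arms. The column of WT replicate 2 is low in nearly every row, with Ppm1k and Acad8 as exceptions.

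Within S273A, the library with the highest level was often a different one in each arm. Replicate 2 had the highest level of all 8 libraries in 12 of the 20 branched-chain genes but in 1 of the 14 pyruvate and TCA genes, while replicate 4 was the highest in 6 and in 10. Over all tested rows these libraries were the highest in 15.2% and 13.2%. Replicate 2 lay above replicate 4 in 13 of 20 branched-chain genes and in 2 of 14 pyruvate and TCA genes, where 49.7% of all tested rows had that order. The median log2 difference between these libraries, replicate 2 minus replicate 4, was 0.05 in the first arm and -0.25 in the second. The summed adipocyte markers were at 17358 CPM in replicate 2 and 18213 CPM in replicate 4, and the part of cell composition in the order was not tested. The mean relative level of the branched-chain arm (log2 CPM minus each gene's mean) was 0.13 in S273A replicate 2, -0.11 in replicate 3, 0.16 in replicate 4 and -0.08 in replicate 6. That of the pyruvate and TCA arm was 0.004, -0.12, 0.19 and 0.05 in the same order. By this mean, replicate 4 was the highest and replicate 3 the lowest S273A library in both arms. In the branched-chain arm, replicates 2 and 4 thus stood in the opposite order to the median difference. Bcat1, at 14.3 CPM in S273A replicate 2 and 49.3 CPM in replicate 4, weighs more on a mean than on a median. These libraries were picked out after their values were seen, and a difference between the arms was not tested.

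**Figure D3:**
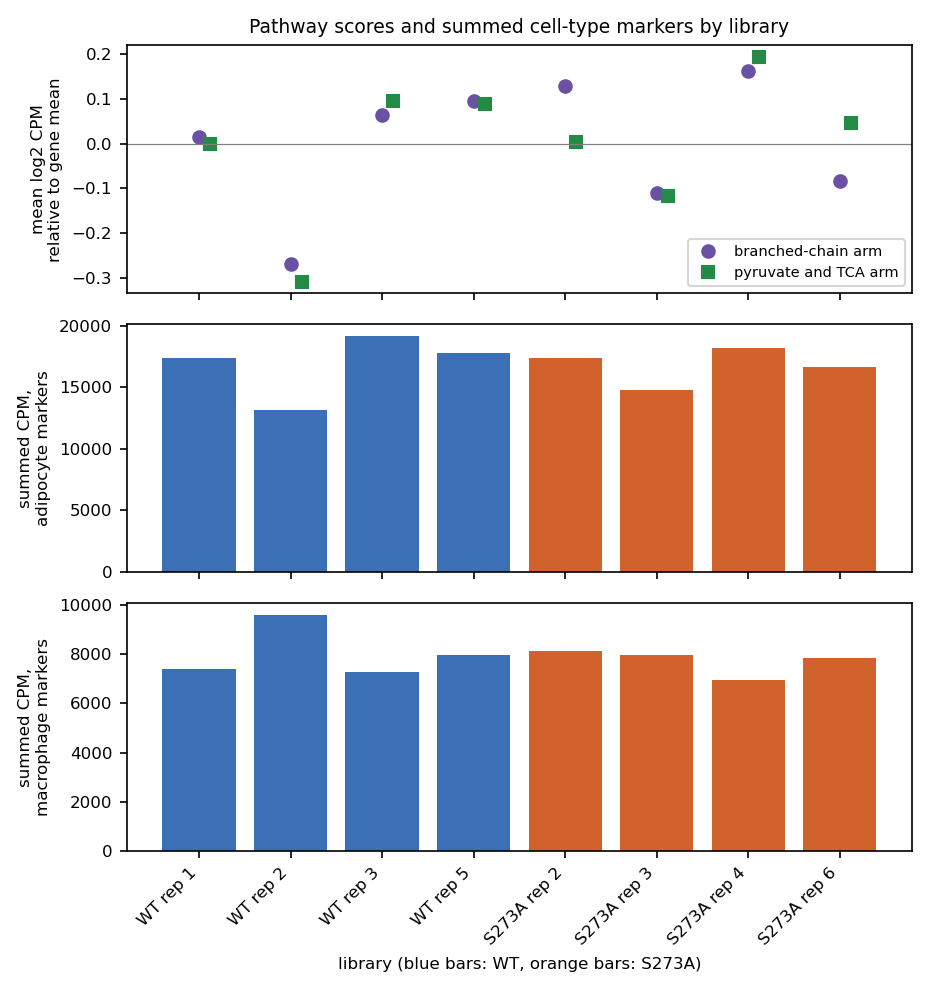
Top panel, mean log2 CPM of each pathway arm relative to the gene means, by library; lower panels, summed CPM of 15 adipocyte and 16 macrophage markers. WT replicate 2 has the lowest value of both arms (-0.27 and -0.31), the lowest adipocyte sum (13172 CPM) and the highest macrophage sum (9601 CPM).

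The pathway starts with the aminotransferases, Bcat2 in mitochondria and Bcat1 in the cytosol. Bcat2 (chromosome 7, 45570153 to 45589711, plus strand, GRCm38) was at 74.5, 67.8, 77.6 and 74.4 CPM in WT and at 88.6, 73.4, 77.9 and 73.5 CPM in S273A, in order of replicate number. The ranges overlapped, with S273A replicate 2 above the rest, and the log2 fold change was 0.09 (SE 0.07, edgeR unadjusted p 0.234). Bcat1 (chromosome 6, 144993835 to 145076184, minus strand) was at 33.0, 23.4, 27.6 and 40.9 CPM in WT and at 14.3, 28.7, 49.3 and 33.2 CPM in S273A. It was the most variable tested member, with its lowest and highest levels of all 8 libraries inside the S273A group, 3.45-fold apart. S273A replicate 2 was the lowest library in this member alone, against 16.3% of all tested rows. Bcat1 had a log2 fold change of 0.005 (SE 0.32). Exons of both genes share bases with an annotated gene on the other strand, which unstranded libraries cannot separate.

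Levels per length (RPKM) divide CPM by the length of the row in kilobases. Bcat2 averaged 21.7 ± 1.21 RPKM in WT against 23.1 ± 2.11 for S273A (SD, 4 libraries each), and Bcat1 averaged 3.75 ± 0.90 and 3.76 ± 1.73. The ratio of Bcat2 to Bcat1 per length was 6.02 ± 1.24 in WT and 7.73 ± 5.13 in S273A, so the mitochondrial form was the more abundant transcript in every library, by 3.89 to 15.3 times. The highest ratio was in S273A replicate 2, where Bcat2 was at its highest and Bcat1 at its lowest. The log2 ratio differed between genotypes by 0.18 (S273A minus WT; exact two-sided permutation p = 0.829, 1 after adjustment over 3 ratios), with SDs of 0.31 in WT and 0.84 in S273A. Without S273A replicate 2 the difference was -0.21, and without replicate 4 it was 0.44.

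The BCKDH complex consists of the decarboxylase subunits Bckdha and Bckdhb, the acyltransferase Dbt and the dehydrogenase Dld, which it shares with the pyruvate and 2-oxoglutarate dehydrogenases. Bckdha was at 101, 84.1, 112 and 112 CPM in WT and at 123, 97.1, 117 and 104 CPM in S273A (estimate 0.11 on the log2 scale, SE 0.10). S273A replicate 2 was the highest library and WT replicate 2 the lowest, and the groups overlapped. The row named Bckdha (gene at chromosome 7, 25629946 to 25658981, minus strand) is 7679 bases long, 404% of the exon length of the gene in GENCODE M21, and the gene shares exon bases with B3gnt8 on the other strand, so its count may hold reads from outside the gene. Dbt was at 46.6, 38.7, 50.8 and 51 CPM in WT and at 55.7, 42.8, 46.9 and 41.0 CPM in S273A, a log2 fold change of -0.004 (SE 0.11). Its S273A values enclosed 3 of the 4 WT values. Bckdhb was at 36.9 ± 3.85 and 38.2 ± 3.3 CPM and Dld at 97.7 ± 13.3 and 98.1 ± 11.4 CPM (WT and S273A, SD, n = 4 each). By the row lengths as deposited, Dld had the highest level per length of the complex (42.9 ± 5.85 RPKM in WT), followed by Bckdhb (22.8 ± 2.38). Dbt (14.2 ± 1.75) and Bckdha (13.3 ± 1.73) differed by less than their spread. With its long row, the level per length of Bckdha is uncertain, and so is its place in this order.

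Bckdk, the kinase that inactivates the complex, and Ppm1k, the phosphatase that reactivates it, set its activity after translation. Bckdk (chromosome 7, 127904082 to 127910221, plus strand) was at 53.5, 48.4, 57.9 and 56.1 CPM in WT and at 52.7, 52.1, 58.6 and 53.0 CPM in S273A, with an estimate of 0.003 (log2 scale, SE 0.07, with a 95% confidence interval of -0.15 to 0.16). Ppm1k (chromosome 6, 57506502 to 57535468, minus strand) was at 31.6, 30.5, 27.4 and 30.2 CPM in WT and at 34.6, 27.3, 28.1 and 27.9 CPM in S273A (estimate -0.02 on the log2 scale, SE 0.09). S273A replicate 2 held the highest Ppm1k level; replicate 3 was just below the lowest WT library, and replicates 4 and 6 were inside the WT range, below 3 of its 4 values. The kinase transcript exceeded the phosphatase transcript per length by 3.53 ± 0.45 times in WT and 3.61 ± 0.46 times in S273A. The log2 ratio of Bckdk to Ppm1k was 0.76, 0.66, 1.08 and 0.89 in WT and 0.61, 0.93, 1.06 and 0.92 in S273A. The genotypes differed in it by 0.03 (exact two-sided permutation p = 0.829, 1 after adjustment over 3 ratios), less than the SDs of 0.18 and 0.19. The smallest p that 4 against 4 libraries can give is 0.0286.

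**Figure D4:**
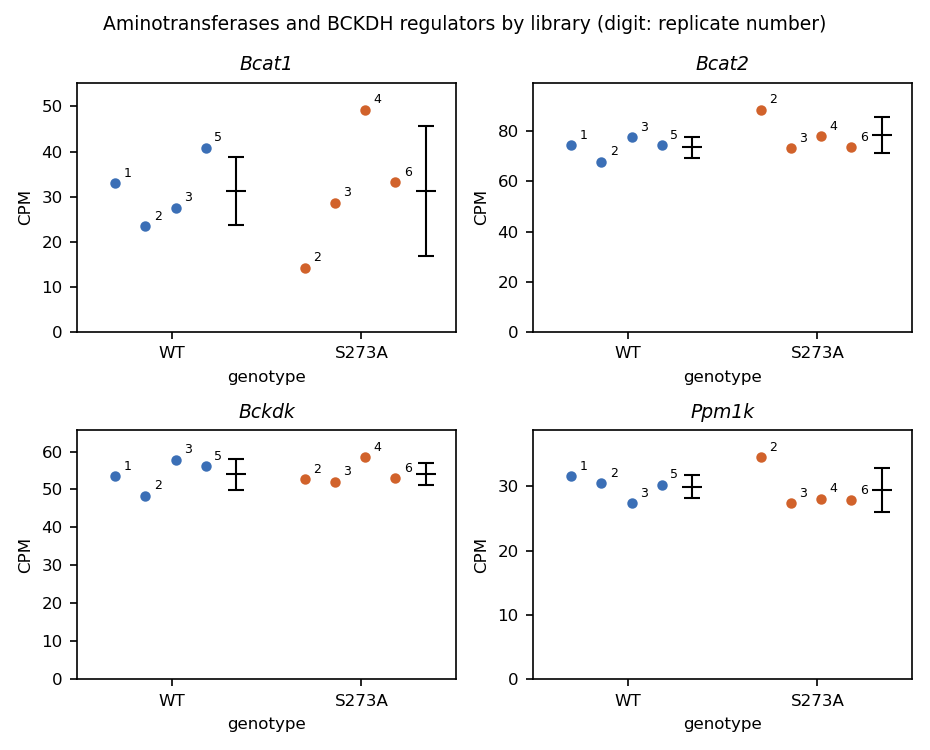
CPM of the aminotransferases Bcat1 and Bcat2 and of the BCKDH regulators Bckdk and Ppm1k (vertical axes, from 0); points are libraries with their replicate number, and bars beside them give the mean and SD of 4 libraries. Bcat1 ranges from 14.3 to 49.3 CPM within S273A, while Bckdk stays between 48.4 and 58.6 CPM in all 8 libraries.

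On the leucine branch, Ivd, isovaleryl-CoA dehydrogenase, was at 86.9, 72.9, 96.5 and 92.6 CPM in WT and at 119.7, 88.8, 98.6 and 77.9 CPM in S273A. It had the highest estimate of all members (0.14 on the log2 scale, SE 0.13, edgeR unadjusted p 0.302), with S273A replicate 2 well above the WT range, replicate 4 just above it and replicate 6 near its lower end. Mccc2, the beta subunit of methylcrotonyl-CoA carboxylase, was at 45, 35.7, 54.3 and 53.3 CPM in WT and at 51.4, 44.0, 55.4 and 46.0 CPM in S273A (estimate 0.07 on the log2 scale, SE 0.13). The alpha subunit Mccc1 had between 5 and 17 counts in a library and was not tested; its row covers 401 bases, 3.66% of the exon length of the gene, so this row does not measure the gene. Auh, methylglutaconyl-CoA hydratase, averaged 53.3 ± 5.66 CPM in WT against 56.5 ± 4.34 CPM for S273A.

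On the valine branch, Hibadh, 3-hydroxyisobutyrate dehydrogenase, was at 145, 111, 147 and 145 CPM in WT and at 161, 133, 159 and 132 CPM in S273A. The WT values other than replicate 2 lay within 3 CPM of each other, between the S273A pairs, and the log2 fold change was 0.09 (SE 0.11). Aldh6a1, methylmalonate semialdehyde dehydrogenase, was at 304, 226, 293 and 309 CPM in WT and at 357, 265, 329 and 236 CPM in S273A (estimate 0.07 on the log2 scale, SE 0.14). The gene Aldh6a1 shares 1078 exon bases with Bbof1 on the other strand, which unstranded libraries cannot separate. Hibch, which releases 3-hydroxyisobutyrate from CoA, was at 56.6 ± 8.58 and 58.8 ± 12.4 CPM. Acad8, isobutyryl-CoA dehydrogenase, had the lowest estimate of all members: it was at 32.1, 35.5, 33.5 and 33.5 CPM in WT and at 32.9, 31.9, 33.6 and 29.3 CPM in S273A, an estimate of -0.08 (log2 scale, SE 0.06, with a 95% confidence interval of -0.22 to 0.06). It was also among the least variable members, with its highest library 1.21 times its lowest.

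Acadsb, the dehydrogenase of the isoleucine branch, averaged 160 ± 21.7 CPM in WT against 167 ± 25.4 CPM for S273A. Acat1, which cleaves acetoacetyl-CoA to acetyl-CoA, was at 104, 74.6, 105 and 98.7 CPM in WT and at 112, 88.1, 112 and 99.4 CPM in S273A (estimate 0.11 on the log2 scale, SE 0.12). Propionyl-CoA from isoleucine and valine is carboxylated by Pcca and Pccb and epimerised by Mcee. Pcca, the alpha subunit, was at 74.5, 59.6, 76.9 and 82.8 CPM in WT and at 82.3, 69.6, 84.0 and 69.3 CPM in S273A, a log2 fold change of 0.06 (SE 0.11). The gene Pcca shares 241 exon bases with Ggact on the other strand, so its count may hold reads of Ggact. Pccb was at 86.0 ± 12.3 and 93.8 ± 14.1 CPM, and Mcee, with the fewest reads of the tested members, at 9.82 ± 1.45 and 10.2 ± 1.68 CPM. In each of these 5 genes the difference of the means was smaller than either SD.

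Pyruvate entry holds the member with the highest level and one of the widest ranges. Pcx, pyruvate carboxylase (chromosome 19, 4510472 to 4621752, plus strand), was at 676, 413, 783 and 777 CPM in WT and at 713, 576, 880 and 705 CPM in S273A. WT replicate 2 was at 0.55 times the mean of the other 3 WT libraries, S273A replicate 3 was the lowest of its group, and the genotype estimate was 0.12 (log2 scale, SE 0.20, with a 95% confidence interval of -0.33 to 0.56). Without WT replicate 2 the estimate was -0.05. Dlat, the acyltransferase of pyruvate dehydrogenase, followed the same order of libraries in part, at 129, 86.6, 143 and 142 CPM in WT and at 117, 102, 157 and 134 CPM in S273A. Pdhb, the beta subunit of its decarboxylase, was at 56.9 ± 7.93 and 58.2 ± 6.75 CPM. Per length, Pcx was at 155 ± 40.6 RPKM in WT and 168 ± 29.1 in S273A, above Pdhb (38.3 ± 5.34 and 39.2 ± 4.54) and Dlat (31.0 ± 6.54 and 31.5 ± 5.86), which differed from each other by about their spread.

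In the first span of the cycle, Cs, citrate synthase, was at 261, 224, 319 and 304 CPM in WT and at 285, 249, 316 and 312 CPM in S273A (estimate 0.07 on the log2 scale, SE 0.12). The subunits of the NAD-dependent isocitrate dehydrogenase are encoded by Idh3a, Idh3b and Idh3g. Idh3g, a regulatory subunit (chromosome X, 73778963 to 73786897, minus strand), had the smallest unadjusted p of all members, 0.0948 in edgeR. It was at 113, 95.1, 108 and 109 CPM in WT and at 120.3, 107, 124 and 113 CPM in S273A, an estimate of 0.13 (log2 scale, SE 0.07, with a 95% confidence interval of -0.03 to 0.28). Of the S273A values, that of replicate 3 lay below 3 of the WT values, so the groups overlapped. Without S273A replicate 3 it was the only member with an unadjusted p under 0.05. The catalytic subunit Idh3a was at 189, 141, 217 and 219.8 CPM in WT and at 179.6, 157, 217 and 199 CPM in S273A, a log2 fold change of -0.02 (SE 0.14), and Idh3b was at 99.0 ± 8.04 and 101 ± 6.47 CPM. Per length, Idh3a was at 74.5 ± 14.2 RPKM in WT and 73.3 ± 10 in S273A, Idh3b at 65.2 ± 5.29 and 66.4 ± 4.26, and Idh3g at 79.8 ± 5.72 and 87.1 ± 5.86 (SD, n = 4). Idh3g exceeded Idh3b by more than their spread in both genotypes, while Idh3a and Idh3b differed by less than the spread of Idh3a.

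The 2-oxoglutarate dehydrogenase complex is built from Ogdh and Dlst, with Dld. Ogdh was at 415, 354, 438 and 431 CPM in WT and at 468, 406, 457 and 409 CPM in S273A (estimate 0.09 on the log2 scale, SE 0.08). Its row is 14084 bases long, 258% of the annotated exon length. The Ogdh count may thus hold reads from outside the gene, and its level per length is uncertain. Dlst, the acyltransferase, was among the steadiest members, at 153 ± 9.72 and 159 ± 8.30 CPM, with its highest library 1.2 times its lowest. Succinyl-CoA is then split by a ligase with the shared subunit Suclg1 and either Sucla2, the ATP form, or Suclg2, the GTP form. Sucla2 was at 103, 77.6, 100 and 104 CPM in WT and at 88.8, 92.6, 112 and 97.0 CPM in S273A, and Suclg2 was at 25.5, 18.9, 21.8 and 21.5 CPM in WT and at 24.1, 21.6, 21.0 and 22.2 CPM in S273A. Per length the GTP form was at 0.159 ± 0.014 times the ATP form in WT and 0.160 ± 0.024 times in S273A. The log2 ratio of Suclg2 to Sucla2 differed by 0.001 between genotypes (exact two-sided permutation p = 1), with SDs of 0.12 and 0.22. The shared subunit Suclg1 was at 62.0 ± 5.01 and 65.4 ± 5.41 CPM.

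The last steps regenerate oxaloacetate. Fh1, fumarase, was at 71.0, 66.7, 79.6 and 77.9 CPM in WT and at 77.0, 73.5, 93.8 and 73.1 CPM in S273A (estimate 0.11 on the log2 scale, SE 0.09, edgeR unadjusted p 0.277). S273A replicate 4 was alone above the WT range. Mdh2, mitochondrial malate dehydrogenase, was at 121, 106, 144 and 139 CPM in WT and at 125, 121, 154 and 143 CPM in S273A, a log2 fold change of 0.09 (SE 0.11). By level per length, the order of the members was led by Pcx, Mdh2 and Cs. Mdh2 and Cs did not differ beyond their spread, at 99.5 ± 13.5 and 98.0 ± 15.2 RPKM in WT. Idh3g, Hibadh and Idh3a came next, at 79.8, 79.2 and 74.5 RPKM in WT, again within their spread. Bcat1, Suclg2 and Ppm1k were the 3 lowest of the tested members, at 3.75, 5.21 and 5.38 RPKM in WT. Rows differ from the annotated exon length of their gene, so this order holds for the rows as deposited.

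**Figure D5:**
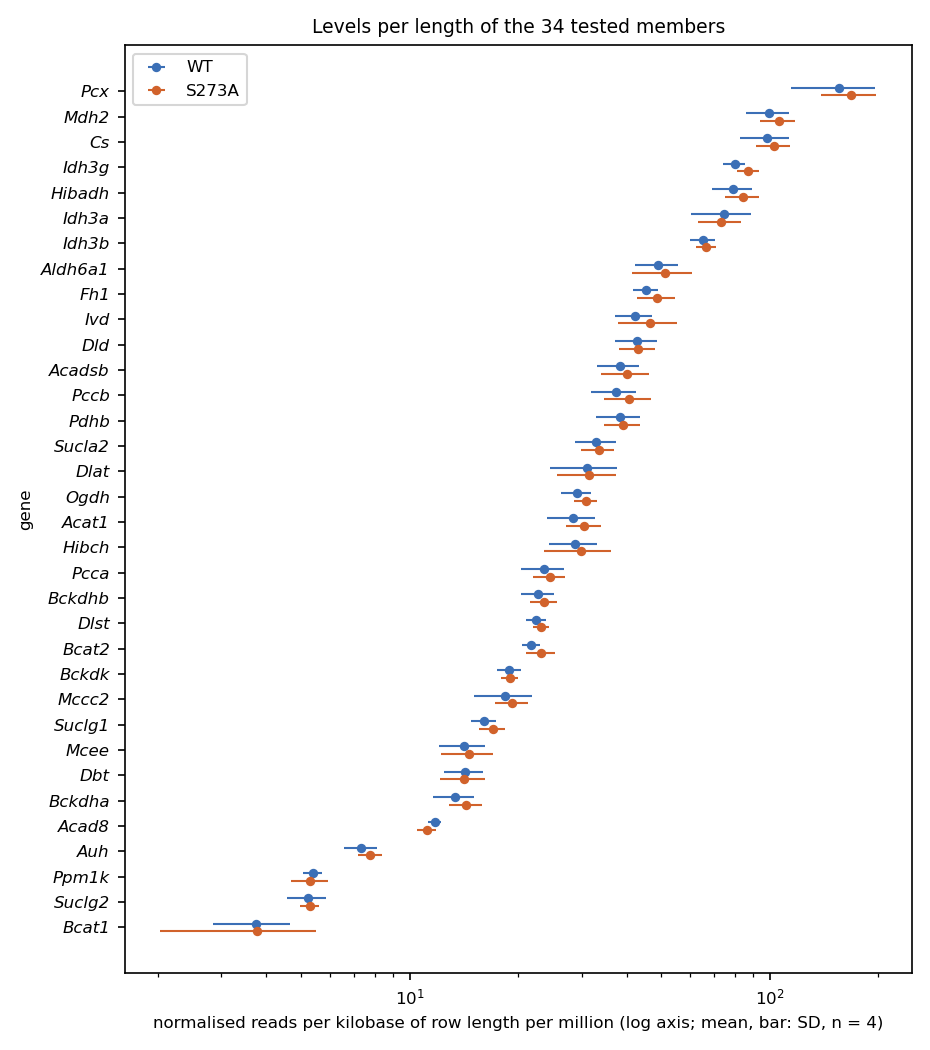
Level per length of each tested member (horizontal log axis, RPKM), mean with SD of 4 libraries for each genotype, sorted by the mean over all libraries. Means run from 3.75 for Bcat1 to 168 for Pcx, and the bars of the genotypes overlap in each gene.

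The other genes of these pathways were described by lists. Of 20 tested genes for branched-chain amino acid transport, later steps and control, 0 passed edgeR's test, 12 estimates were positive and 8 negative, and the median log2 fold change was 0.02. Slc43a1, an amino acid transporter, had the smallest unadjusted p (0.0675), averaging 17.3 ± 1.05 CPM in WT against 21.4 ± 5.14 CPM for S273A, and Slc25a44, the mitochondrial branched-chain amino acid carrier, was at 64.5 ± 4.50 and 69.2 ± 3.80 CPM. Klf15, a transcription factor known to control amino acid breakdown, was at 21.7, 12.9, 25.1 and 18.2 CPM in WT and at 35.5, 17.9, 20.9 and 15.8 CPM in S273A, highest in S273A replicate 2. Of 35 tested genes of pyruvate handling, the TCA cycle and its carriers, 0 passed, 23 estimates were positive and 12 negative, and the median was 0.03. Among the kinases that inactivate pyruvate dehydrogenase, Pdk1 was at 77.3 ± 6.97 and 69.4 ± 5.82 CPM (estimate -0.16 on the log2 scale, SE 0.08, edgeR unadjusted p 0.0817), and Pdk4 was at 456 ± 74.2 and 454 ± 56.0 CPM (-0.01, SE 0.12).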

How the data were processed

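The authors deposited raw counts, a whole number for each gene row in each of 8 libraries, with the length of each row in bases. The submitters' processing notes name the build mm10 and, without roles, the tools edgeR 3.3.0, featureCounts 1.5.2, Picard 2.9.2, HISAT2 2.0.5 and bcl2fastq 2.20.0; the annotation version is not given in the sources used here. Per the labels' protocols, RNA was depleted of ribosomal RNA and the libraries carry no strand.

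The deposited counts went unchanged into edgeR 4.0.16 (R 4.3.3): filterByExpr (15667 rows kept), TMM, and a robust quasi-likelihood test of genotype on all 8 libraries with no covariate. P-values were adjusted by Benjamini-Hochberg over all tested rows, with calls under 0.05. The script was checked on simulated counts for 15549 rows. It called 11 of 50 rows changed 1.25-fold and 35 of 50 changed 1.5-fold. At 2-fold it called 45 of 50 and at 4-fold 50 of 50, with 11 false calls in the whole run. Levels per length divide CPM by row length. Log2 ratios used a prior count of 2 and exact permutation tests. Positions came from GENCODE M21 (GRCm38); 27 of 37 members shared no exon bases with another gene. No 2 libraries of a genotype were alike enough to be 1 library: chi-square over degrees of freedom was at least 7.33. The members, lists and motifs were chosen with earlier results of these data known. Values in every library are given for enzymes that define a step and for the 3 members of each arm with the smallest p; in the lists of other pathway genes, the examples come from the 4 with the smallest p, with Pdk4 and Slc25a44; 1 further gene of that rule is not reported here. Alternatives were DESeq2 1.42.0, limma-voom 3.58.1, other scalings, no filter, each library left out and a replicate block.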

Additional observations from a re-analysis of the deposited data

Results flagged for a closer look

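In 5 of 68 sets of 4 libraries (34 members in 2 genotypes), 1 library stood apart from the other 3 by more than 0.829 of the range, which chance gives in about 1 in 20 sets. Hibadh was at 111.4 CPM in WT replicate 2 against 145 to 147 in the other WT libraries. Auh was at 44.9 CPM there against 55.1 to 57.0, and Sucla2 at 77.6 CPM against 100 to 104. Ppm1k was at 34.6 CPM in S273A replicate 2 against 27.3 to 28.1 in the other S273A libraries. Bckdk was at 58.6 CPM in S273A replicate 4 against 52.1 to 53.0.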

How the results depend on the processing

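No member was called under any of the 14 alternatives, and 13 of the 34 estimates kept their sign in all of them. DESeq2 called 1 gene of the table, which is no member, and with 1 library left out edgeR called 0 to 1. With 1 library left out, 13 (without WT replicate 2) to 33 (without S273A replicate 3) members had positive estimates and 0 to 1 an unadjusted p under 0.05. The members' median log2 fold change ran from -0.02 to 0.12 in those fits.

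Over the fits without 1 library, log2 fold changes that changed sign ran as follows: Bcat1 -0.30 to 0.25, Bckdhb -0.0072 to 0.12, Dbt -0.10 to 0.052, Dld -0.080 to 0.067, Bckdk -0.046 to 0.042, Ppm1k -0.11 to 0.020, Mccc2 -0.048 to 0.14, Hibch -0.055 to 0.15, Acadsb -0.024 to 0.14, Pcca -0.033 to 0.12, Mcee -0.036 to 0.16, Aldh6a1 -0.032 to 0.16, Cs -0.021 to 0.15, Idh3a -0.15 to 0.059, Idh3b -0.028 to 0.070, Sucla2 -0.069 to 0.065, Suclg2 -0.044 to 0.10, Pdhb -0.059 to 0.090, Dlat -0.12 to 0.13 and Pcx -0.054 to 0.22. The log2 ratios ran from -0.030 to 0.12 (Bckdk to Ppm1k), -0.21 to 0.44 (Bcat2 to Bcat1) and -0.083 to 0.096 (Suclg2 to Sucla2). Limma-voom gave -0.10 for Bcat1. The cause was not tested.

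Only the numbers 2 and 3 occur in both genotypes, and libraries with the same number did not deviate together (correlations -0.08 and -0.22), so the numbers were not taken to pair the libraries; the labels do not say what a shared number means. A fit with a replicate block takes its genotype estimate only from the libraries numbered 2 and 3, among them WT replicate 2. With the replicate block the median was 0.11 and 25 estimates were positive; the sign changed for Bcat1 (-0.32), Dbt (0.14), Dld (-0.019), Bckdk (-0.014), Ppm1k (0.091), Cs (-0.0080), Mdh2 (-0.011), Pdhb (-0.0065), Dlat (-0.032) and the ratio of Bckdk to Ppm1k (-0.10). The number of libraries limits the precision: the 95% confidence intervals of the members reached a median of 0.24 (log2) from the estimate.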
